A study of Mus musculus with 6 samples.

Results

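The genes described here are 36 genes of DNA replication and cell division, named as a list. They were looked up in quadriceps muscle of mice labelled Pofut1 knockout and control. Platform annotation listed at least 1 probe set under that gene alone for 35 of them, among 18194 genes measured in all. Ccnb1 (cyclin B1) had none. Each gene was read from its brightest single-gene probe set by mean over 6 arrays. This set had an _x_at name for Mcm4, Mcm5, Mcm6, Rrm2, Ccne1 and Cdk4. For Mcm2, Mcm3, Mcm7, Aurkb, Bub1b and Pttg1 it had an _s_at name. Whether such sets also match other transcripts was not checked. By role they comprised 13 replication genes, 6 cyclins and kinases of the G1 phase and 16 genes of mitosis. The knockout group held 3 quadriceps samples that carried both skeletal α actin cre and Pofut1flox/flox alleles. In the control group were 3 quadriceps samples with skeletal α actin cre and wild type Pofut1, so all 6 carried the cre transgene. All mice were C57/Bl6 and 2 months old. The α-actin promoter is active in muscle fibres, and the RNA came from whole muscle, which also holds vessels, connective tissue, immune cells and satellite cells. Fewer cells of a type and less RNA per cell cannot be told apart in such samples. Whether a group is 3 animals is not said in the labels, so p-values reflect only how these samples vary, and that variation may be technical.

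A cell that divides first loads the Mcm helicase onto origins of replication, copies its DNA with the sliding clamp Pcna and deoxynucleotides from ribonucleotide reductase, and then separates its chromosomes under the control of cyclin B, Cdk1 and the spindle checkpoint. D cyclins with Cdk4 start this sequence by releasing E2F factors from the retinoblastoma protein. Muscle fibres have left the cell cycle for good, and in resting adult muscle few of the other cells divide, so transcripts of this kind are usually scarce there. Pofut1 is an enzyme that fucosylates Notch receptors, and Notch signalling is known for keeping muscle satellite cells out of division.

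Promoter sequences of the members are shown first, because genes of the S phase and of mitosis are commonly told apart by them. RefSeq promoters (build GRCm38.p6, from 250 bases before to 50 bases after the start site) were found for 29 of the 36 genes. An E2F motif (TTTCCCGC, TTTGGCGC, TTTCGCGC or TTTGCCGC, on either strand) lay in 6 of 11 replication promoters (54.5%), in 1 of 14 mitosis promoters (7.14%) and in 2.6% of all 27025 genes in the table. The CHR motif (TTTGAA, on either strand), which binds the complex that represses mitotic genes in resting cells, lay in 10 of 14 mitosis promoters (71.4%), in 1 of 11 replication promoters (9.09%) and in 20.2% of all genes. The CCAAT box, on either strand, lay in 22 of the 29 (75.9%) and in 41.1% of all genes. In the 100 bases before the start site the E2F share of replication promoters was 9.09% (Mcm6 alone, against 0.981% of all genes) and the CHR share of mitosis promoters 35.7% (against 6.76%). These shares describe letters in a window and carry no test. Shown are a replication gene (Mcm6), a mitosis gene with both E2F and CHR letters (Cdk1), a mitosis gene with CHR but no E2F letters (Hmmr) and Pttg1, all from the minus strand and printed 5′ to 3′. Matches to the motifs are in capitals, and 2 E2F matches of Mcm6 overlap each other.
Mcm6, chr1:128359656-128359955: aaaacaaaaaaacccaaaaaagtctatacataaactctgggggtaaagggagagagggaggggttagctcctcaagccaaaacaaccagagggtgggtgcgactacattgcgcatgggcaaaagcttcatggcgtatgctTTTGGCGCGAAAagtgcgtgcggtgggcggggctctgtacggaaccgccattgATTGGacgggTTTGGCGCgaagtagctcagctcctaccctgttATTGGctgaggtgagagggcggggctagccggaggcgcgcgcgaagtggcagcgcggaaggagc
Cdk1, chr10:69352863-69353162: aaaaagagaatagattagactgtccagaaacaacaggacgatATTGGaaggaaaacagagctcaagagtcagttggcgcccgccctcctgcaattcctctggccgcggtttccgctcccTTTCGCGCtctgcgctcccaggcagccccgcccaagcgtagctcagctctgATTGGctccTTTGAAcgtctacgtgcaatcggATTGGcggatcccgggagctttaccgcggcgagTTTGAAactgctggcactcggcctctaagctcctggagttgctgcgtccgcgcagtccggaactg
Hmmr, chr11:40733388-40733687: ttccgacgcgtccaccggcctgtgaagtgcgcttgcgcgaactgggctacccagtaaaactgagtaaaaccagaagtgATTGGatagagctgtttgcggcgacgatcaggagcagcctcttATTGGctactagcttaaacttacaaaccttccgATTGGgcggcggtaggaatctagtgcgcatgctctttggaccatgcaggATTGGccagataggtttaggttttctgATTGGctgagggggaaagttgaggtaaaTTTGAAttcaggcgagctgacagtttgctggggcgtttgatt
Pttg1, chr11:43425932-43426231: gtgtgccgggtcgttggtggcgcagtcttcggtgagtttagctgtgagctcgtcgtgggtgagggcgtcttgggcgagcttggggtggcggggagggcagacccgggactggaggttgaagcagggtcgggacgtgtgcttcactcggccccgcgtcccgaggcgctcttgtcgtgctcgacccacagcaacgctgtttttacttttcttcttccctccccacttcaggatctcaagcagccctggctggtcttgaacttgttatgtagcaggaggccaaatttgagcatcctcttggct
Mcm6 held E2F and CCAAT letters, Cdk1 all 3 motifs, and Hmmr the CHR and 5 CCAAT matches. None of the letters searched was found in the Pttg1 window.

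Intensities are on the linear scale of the deposited table, and differences are log2 fold changes of knockout against control. A gene is called near background where its mean lay at or below an intensity of 62.9 (5.97 on the log2 scale), the 95th percentile of 46 genes restricted to other tissues. By this measure 26 of the 35 members were above background. Control replicate 3, as labelled, differed from the other arrays, with correlations of 0.940 to 0.945 with them against 0.980 to 0.991 among the other 5. It was the lowest array for 5152 of the 11047 genes above background, and the highest for 2623. Its 3′ over 5′ intensity ratio for Gapdh, which follows the integrity of the RNA, was 10.5, that of knockout replicate 2 was 3.70, and the others had 1.73 to 1.97. For Actb the same ratio was 5.85 in control replicate 3, 4.34 in knockout replicate 2 and 1.67 to 1.83 in the others, so these 2 arrays were closer by that measure. Results that rest on control replicate 3 are given with and without it. Without both of these arrays 31 of 35 members were lower, against 10012 of all 18194 genes and 6736 of the 11047 above background. Pofut1 read 194 to 231 in the knockout and 301, 380 and 90.6 in control replicates 1 to 3, so the library labelled control replicate 3 had the lowest value. The position of this probe set relative to the deletion is not known here, and one outside it checks nothing. The muscle label was borne out by 10 of 10 fibre markers above background in both groups.

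Of the 35 measured members, 24 had lower (68.6%, against 53.7% of all genes) and 11 higher values in the knockout. Their median log2 fold change was -0.09 against -0.01 over all genes. None passed adjustment in limma (adjusted p of 0.971 to 0.996), as in 0.00% of all genes. At an unadjusted p under 0.05 limma gave 3 members, all lower (Hmmr, Ccnd1 and Mcm6), or 8.57% of them, against 287 of all genes lower (1.58%) and 182 higher. Ordinary t statistics of the same model gave 2 lower members at that p and likewise 0 after adjustment. In 6 members (17.1%) every knockout value lay below every control value, against 5.68% of all genes, and in 1, Pttg1, every knockout value lay above, against 3.33%. Without the array labelled control replicate 3, 29 of 35 members were lower (82.9%) with a median of -0.19. Of all genes above background 63.5% were lower there, with a median of -0.07. The unadjusted limma p was then under 0.05 in 5 lower members, Pcna, Cdt1, Ccnd1, Hmmr and Bub1 (14.3%, against 3.95% of all genes). Of these, Bub1 was at or below background in all 6 arrays and Hmmr in all knockout arrays. In 1 higher member, Pttg1, p was also under 0.05 (against 2.04% of all genes), with 0.00% past adjustment. Of the 35, 10 lay wholly below the 2 remaining controls (28.6%, against 14.2% of all genes) and 1 above (against 10.3%). Without control replicate 1, 20 of 35 were lower (57.1%, against 52.4% of all genes), with a median of -0.03. Of the 26 members above background 57.7% were lower there. Of all genes above background 42.9% were, with a median of 0.05.

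**Figure D1:**
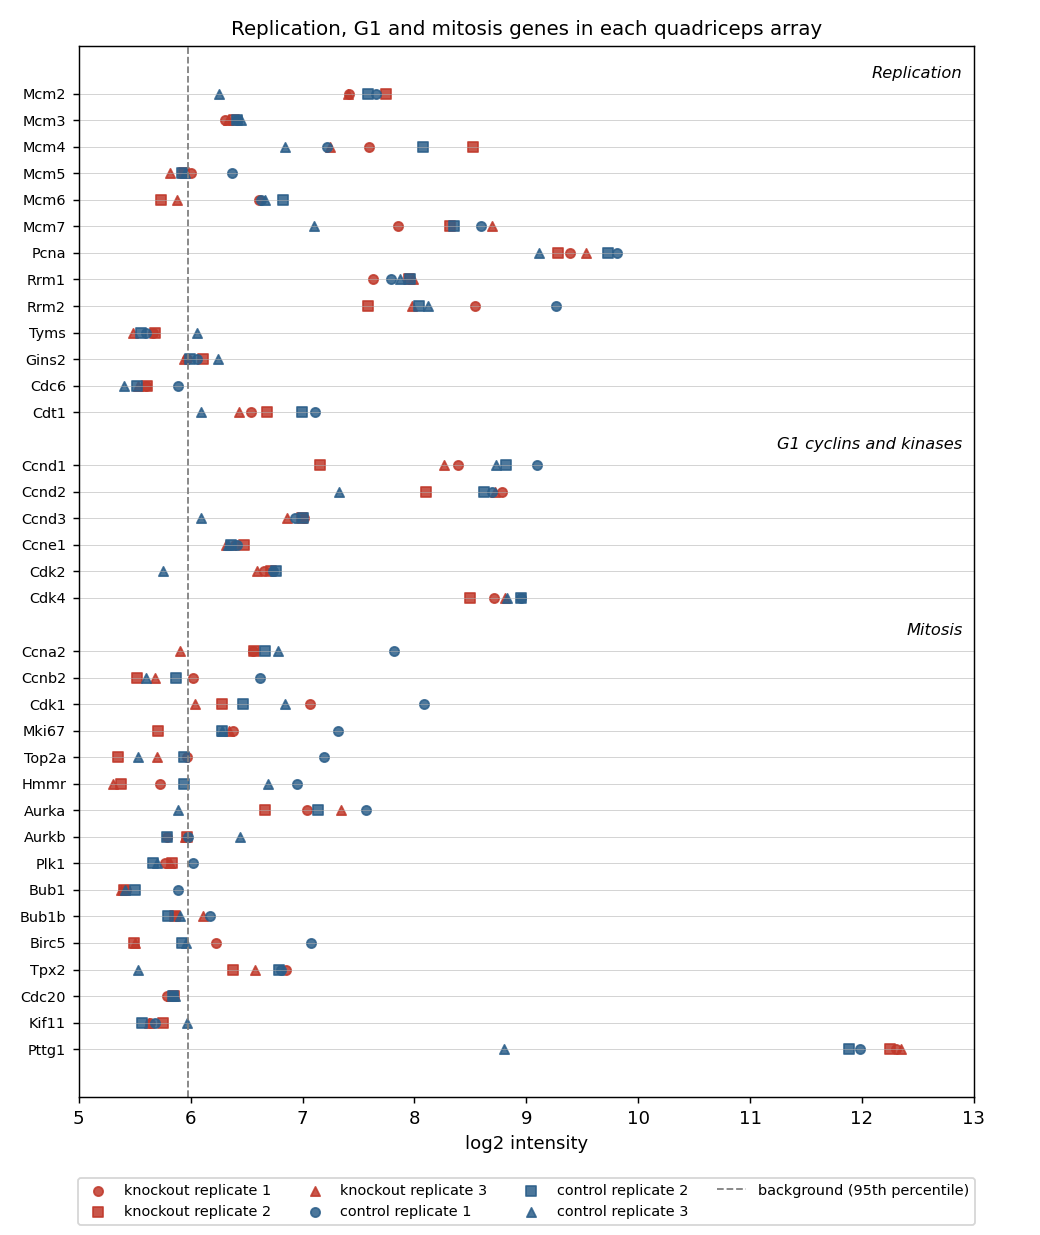
Log2 intensity (horizontal axis) of the 35 measured genes in each of the 6 arrays, 1 symbol per array, knockout in red and control in blue, grouped by role; the dashed line is the background at 5.97. Control replicate 1 is the rightmost symbol for most mitosis genes, and control replicate 3 lies far to the left for Mcm2, Mcm7, Ccnd2 and Pttg1.

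Among replication genes the helicase subunit Mcm6 had the largest difference toward lower values in the knockout. Its knockout replicates 1 to 3 read 97.5, 53.3 and 58.8, and its controls 99.0, 114 and 102. Knockout replicates 2 and 3 were below background, and knockout replicate 1 lay just under the lowest control. The log2 fold change was -0.63 ± 0.26 (SE; limma unadjusted p = 0.0428, adjusted p = 0.971), and it was -0.66 without control replicate 3. The next brightest Mcm6 probe set had -0.22 ± 0.22 with overlapping groups, so the probe sets differed in size. Mcm3, of the same ring, read 79.0, 83.6 and 80.4 in the knockout and 85.3, 85.3 and 87.5 in the controls. Its groups did not overlap, though the log2 fold change was only -0.09 ± 0.15. All 4 other Mcm3 probe sets had overlapping groups, with log2 fold changes of -0.21 to 0.08.

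Other Mcm subunits had no such order. Mcm2 read 170, 214 and 169 in the knockout and 202, 191 and 76.4 in the controls. Mcm7 read 232, 319 and 414 in the knockout and 388, 327 and 138 in the controls. Control replicate 3 was the lowest array in both, and the log2 fold changes of 0.36 ± 0.40 and 0.27 ± 0.43 became -0.10 and -0.19 without it. Mcm4 read 193, 369 and 152 in the knockout and 148, 271 and 114 in the controls. It was highest in replicate 2 of either group, and its log2 fold change was 0.41 ± 0.44. Mcm5 was above background only in knockout replicate 1 and control replicate 1, at 64.1 and 82.6.

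Pcna and Cdt1 were lower in the knockout than in control replicates 1 and 2 but not than in control replicate 3. Pcna, the sliding clamp of the replication fork, read 670, 624 and 742 in the knockout and 900, 851 and 555 in the controls. Cdt1, which loads the Mcm ring onto origins, read 93.0, 103 and 86.5 in the knockout and 139, 127 and 68.1 in the controls. Both had their lowest value in control replicate 3 and their 2 highest in the other controls. Over all 6 arrays the log2 fold changes were -0.15 ± 0.22 for Pcna and -0.18 ± 0.30 for Cdt1. Without control replicate 3 they were -0.37 and -0.50, at unadjusted limma p of 0.0218 and 0.0205. Without control replicate 1, in turn, they were -0.02 and 0.01.

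Both listed subunits of ribonucleotide reductase, which makes deoxynucleotides, had overlapping groups. Rrm2, the subunit made in the S phase, read 373, 192 and 252 in the knockout and 614, 263 and 278 in the controls. Control replicate 1 was highest and knockout replicate 1 second, and the other 4 arrays lay between 192 and 278. The log2 fold change was -0.44 ± 0.40, and without control replicate 1 it was -0.04. The other Rrm2 probe sets were far dimmer, at 53.3 to 94.2 and 43.5 to 46.5. They gave -0.16 and 0.02, also with overlapping groups. Rrm1, the large subunit, read 198 to 253 in the knockout and 222 to 249 in the controls, with a log2 fold change of -0.02 ± 0.19. Gins2, of the active helicase, read 61.4 to 69.2 in the knockout and 63.7 to 75.7 in the controls. Its other probe set, below background in the knockout, read 50.3 to 58.6 and 60.1 to 86.7, without overlap. It gave a log2 fold change of -0.37 ± 0.17. Tyms, thymidylate synthase, and Cdc6, a loader of the helicase, were near background in both groups.

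G1 genes had no common direction over all 6 arrays, and 2 of 6 were lower, with a median of 0.13. Ccnd1, cyclin D1, had knockout values of 336, 142 and 307 against control values of 547, 451 and 423. Every knockout value lay below every control value, and knockout replicate 2, the second array with a raised 3′ over 5′ ratio, was lowest by far. This made a log2 fold change of -0.94 ± 0.34, a 1.92-fold lower level (95% interval -1.76 to -0.13, limma unadjusted p = 0.029, adjusted p = 0.971). It was -1.02 without control replicate 3, -0.55 without knockout replicate 2 and -0.63 without both arrays. The other Ccnd1 probe sets exceeded background in only 3 and 1 arrays. They had log2 fold changes of -0.06 each with overlapping groups. Ccnd1 is also a known target of Notch signalling.

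Cdk4, the kinase partner of the D cyclins, had a smaller difference of the same direction. It read 418, 362 and 449 in the knockout and 495, 497 and 455 in the controls. The groups did not overlap, and the log2 fold change was -0.24 ± 0.16 (95% interval -0.62 to 0.14). A further Cdk4 probe set gave -0.26 ± 0.19 without overlap, and the third -0.06 ± 0.19 with overlap.

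The other G1 genes differed mainly in 1 control array. Ccnd2, cyclin D2, read 441, 275 and 422 in the knockout and 413, 395 and 160 in the controls. Ccnd3, cyclin D3, read 116 to 129 in the knockout and 122, 128 and 68.4 in the controls. Cdk2, the kinase that acts with cyclins E and A, read 96.6 to 105 in the knockout and 107, 109 and 53.9 in the controls. Control replicate 3 was the lowest array for all 3 genes, as it was for 5152 of the 11047 genes above background. Their log2 fold changes of 0.32, 0.28 and 0.24 became -0.12, -0.02 and -0.10 without it. Ccne1, cyclin E1, lay between 79.8 and 89.0 in all 6 arrays, with a log2 fold change of 0.03 ± 0.15. The median of the 6 G1 genes was -0.11 without control replicate 3.

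Of the 16 mitosis genes 12 were lower in the knockout (75%, against 53.7% of all genes), with a median log2 fold change of -0.18. Without control replicate 1, 10 were lower, with a median of -0.06. By the mean over 6 arrays only 9 were above background, by the knockout mean 6 and by the control mean 11. Hmmr, a microtubule-binding protein of the spindle, had the smallest p of all members. It read 52.8, 41.5 and 39.6 in the knockout and 124, 61.6 and 103 in the controls. All knockout values and control replicate 2 were below the background of 62.9, so the size of the difference is uncertain. Hmmr passed background only through the controls, with mean log2 values of 5.47 in the knockout and 6.53 in the controls. Its probe set was likewise brightest only through the controls, since another had a knockout mean of 5.67. Its p is therefore not independent of how the gene was read. The log2 fold change was -1.06 ± 0.27 (95% interval -1.69 to -0.43, limma unadjusted p = 0.00535, adjusted p = 0.971). It kept its sign without any 1 array, at -1.35 to -0.85. The 4 other Hmmr probe sets, at or below background in nearly all arrays, had log2 fold changes of -0.17 to 0.06. The probe set at 0.06 had every knockout value above every control value.

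Ccna2, cyclin A2, which acts in the S phase and at entry into mitosis, read 94.1, 94.5 and 59.9 in the knockout and 225, 101 and 110 in the controls. The groups did not overlap, but control replicate 1 lay far above the others. The log2 fold change was -0.75 ± 0.37, and -0.38 without control replicate 1. Its other probe set gave -0.58 ± 0.28 with overlapping groups.

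Control replicate 1 also stood above every other array for the commonly used markers of dividing cells. Cdk1, the kinase that drives mitosis, read 134, 77.6 and 65.9 in the knockout and 272, 88.6 and 115 in the controls. Mki67, the antigen Ki-67 used to count dividing cells, read 83.1, 52.4 and 81.4 in the knockout and 160, 77.7 and 77.7 in the controls. Top2a, the topoisomerase that untangles sister chromatids, read 62.7, 40.8 and 52.1 in the knockout and 146, 61.5 and 46.1 in the controls. For all 3 the remaining controls lay within the knockout range.

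Birc5 and Ccnb2 had the same order. Birc5 (survivin), of the chromosomal passenger complex, read 75, 44.9 and 45.2 in the knockout and 135, 60.7 and 62.1 in the controls. Ccnb2, cyclin B2, read 65.0, 45.8 and 51.2 in the knockout and 98.5, 58.5 and 48.4 in the controls. Over these 5 genes the log2 fold changes were -0.67 for Cdk1, -0.58 for Birc5, -0.55 for Top2a, -0.48 for Mki67 and -0.29 for Ccnb2. Without control replicate 1 they were -0.20, -0.20, -0.06, -0.13 and 0.00. Knockout replicate 1 was the highest of the knockout arrays for each of the 5.

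**Figure D2:**
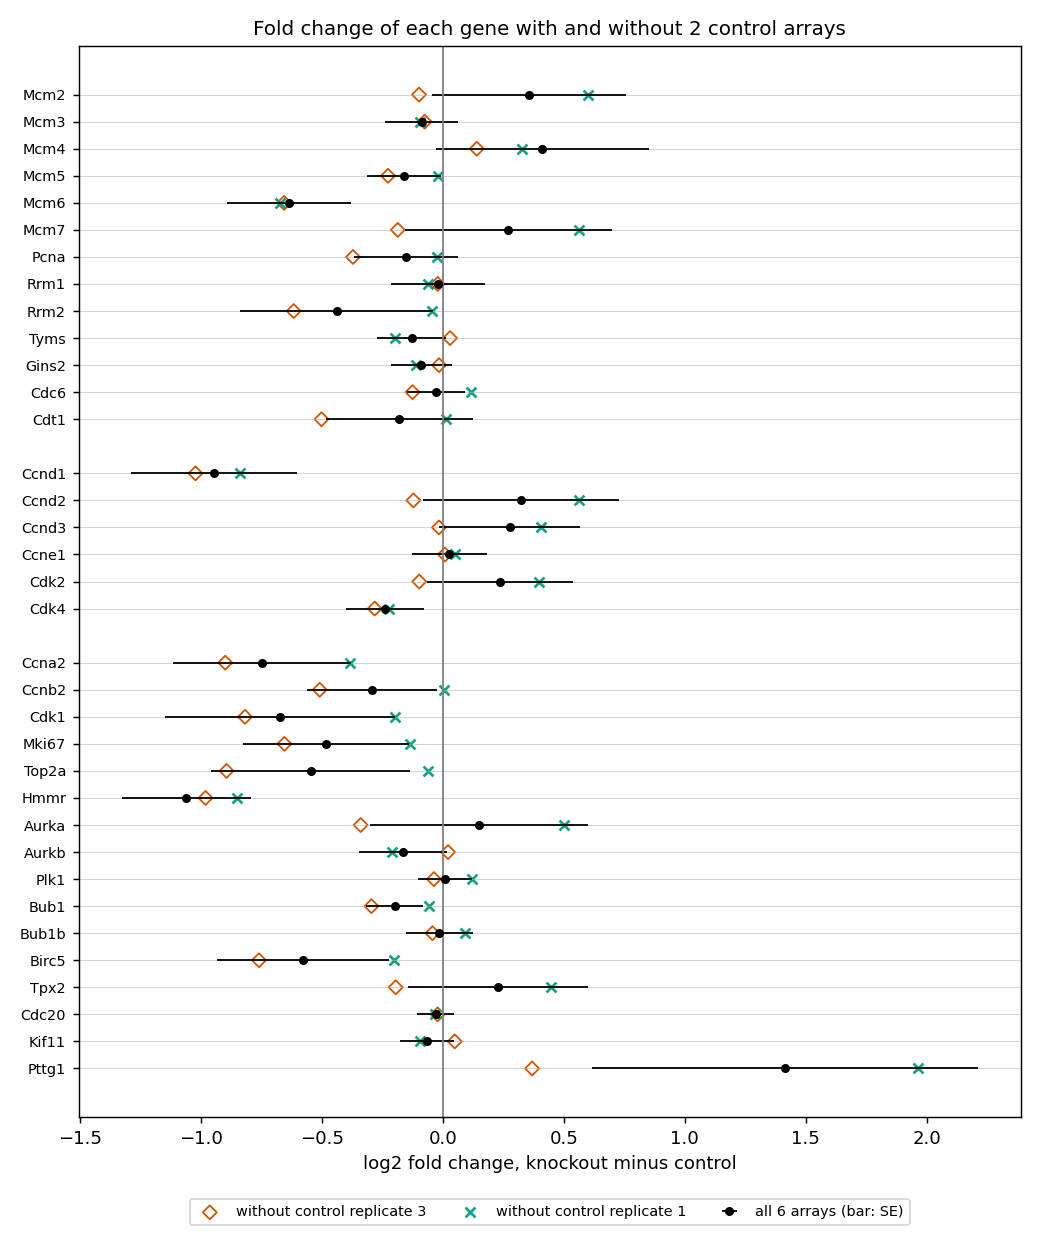
Log2 fold change, knockout minus control, of each gene over all 6 arrays (black, with its SE), without control replicate 3 (orange diamonds) and without control replicate 1 (green crosses). Mcm6, Ccnd1 and Hmmr keep negative values in all 3 fits, whereas Cdk1, Top2a and Birc5 move toward 0 without control replicate 1.

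Pttg1, securin, which holds the separase protease inactive until anaphase, was the 1 member whose knockout values all lay above the controls. It read 5064, 4883 and 5205 in the knockout and 4044, 3776 and 445 in control replicates 1 to 3. The knockout values were close together, and control replicate 3 was far below the rest. The log2 fold change was 1.41 ± 0.80 over all 6 arrays (95% interval -0.47 to 3.30, limma unadjusted p = 0.119, adjusted p = 0.971). Without control replicate 3 it was 0.37, with an unadjusted p of 0.0054. Both other Pttg1 probe sets also separated the groups, and without that array they gave 0.59 and 0.50.

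**Figure D3:**
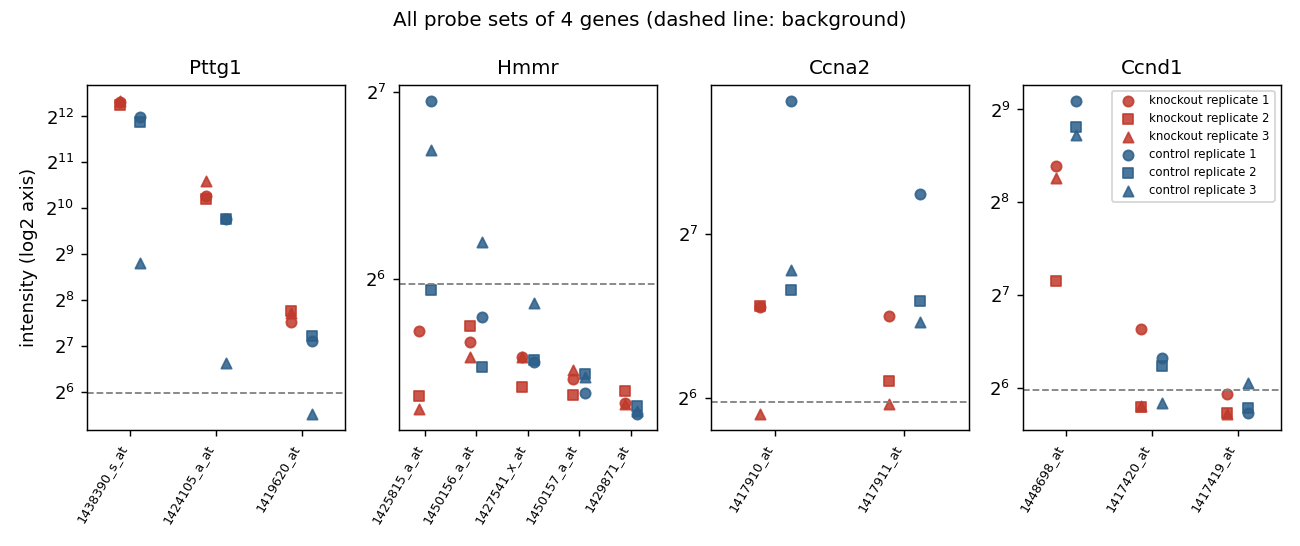
Intensity (vertical log2 axis) in each array for every probe set of Pttg1, Hmmr, Ccna2 and Ccnd1, knockout in red on the left and control in blue on the right of each position; the dashed line is the background. All 3 probe sets of Pttg1 have the knockout above the controls, while Hmmr, Ccna2 and Ccnd1 have it below them on their brightest probe set. The dimmest Hmmr probe set, below background, has the knockout slightly above the controls.

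The remaining mitosis genes had overlapping groups. Aurka, the centrosome kinase, read 132, 102 and 163 in the knockout and 190, 141 and 59.1 in the controls. Tpx2, which activates it on the spindle, read 115, 83.4 and 95.5 in the knockout and 112, 110 and 46.2 in the controls. Both were lowest in control replicate 3, and their log2 fold changes of 0.15 and 0.23 became -0.34 and -0.19 without it. Bub1, a checkpoint kinase, was at or below background in all 6 arrays, and so were Cdc20, which activates the anaphase-promoting complex, and the spindle motor Kif11. Plk1, a mitotic kinase, the checkpoint protein Bub1b and Aurkb, the kinase of the passenger complex, exceeded background in 1, 2 and 1 arrays. Their log2 fold changes lay between -0.16 and 0.01.

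Most mitosis genes were highest in control replicate 1. There their median lay 0.51 above each gene's own mean on the log2 scale, against -0.13 to -0.02 in the other 5 arrays, and 11 of 16 had their highest value. Tpx2, Aurkb, Cdc20, Kif11 and Pttg1 were higher in another array. Replication genes had a median of 0.30 in that array, 0.09 in control replicate 2 and -0.13 to 0.01 elsewhere. G1 genes stood at 0.18 and 0.21 in control replicates 1 and 2 and at -0.39 in control replicate 3. All genes above background had a median of -0.16 in control replicate 3. The median within-group SD was 0.46 for mitosis genes, 0.28 for replication genes and 0.39 for G1 genes, against 0.19 over all genes. Without control replicate 3 it was 0.26, 0.16 and 0.10, against 0.12 over all genes. The low G1 value is a median, and the knockout SD was 0.68 for Ccnd1 and 0.38 for Ccnd2. Macrophage markers were also highest in control replicate 1 (median 0.71) and next in knockout replicate 1 (0.39), with -0.39 to -0.14 in the other 4 arrays. Of 14 such markers 12 were above background in the knockout and 14 in the controls, and their summed intensity was 7299.8 to 12406 and 8696 to 14556. Of these markers 11 of 14 were lower in the knockout (median log2 fold change -0.16), 3 of them at an unadjusted p under 0.05 (21.4%, against 8.57% of the members). Without control replicate 3 all 14 were lower (median -0.42), and without control replicate 1 only 6 were (median 0.13). Satellite cell and myoblast markers were lowest in control replicate 3 (-0.61). They stood at 0.31 and 0.18 in control replicates 1 and 2 and at 0.26, -0.15 and -0.06 in the knockout. Their summed intensities were 5166 to 6638 in the knockout and 4342 to 7029 in the controls. Most of each sum was Des, at 3136 to 4204 in the knockout and 2855 to 4603 in the controls. Pax7 read only 89.3 to 106 and 42.6 to 118, so the sums say little about it. None of 8 measured lymphocyte markers was above background. The part of these cells in the members' values was not tested.

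**Figure D4:**
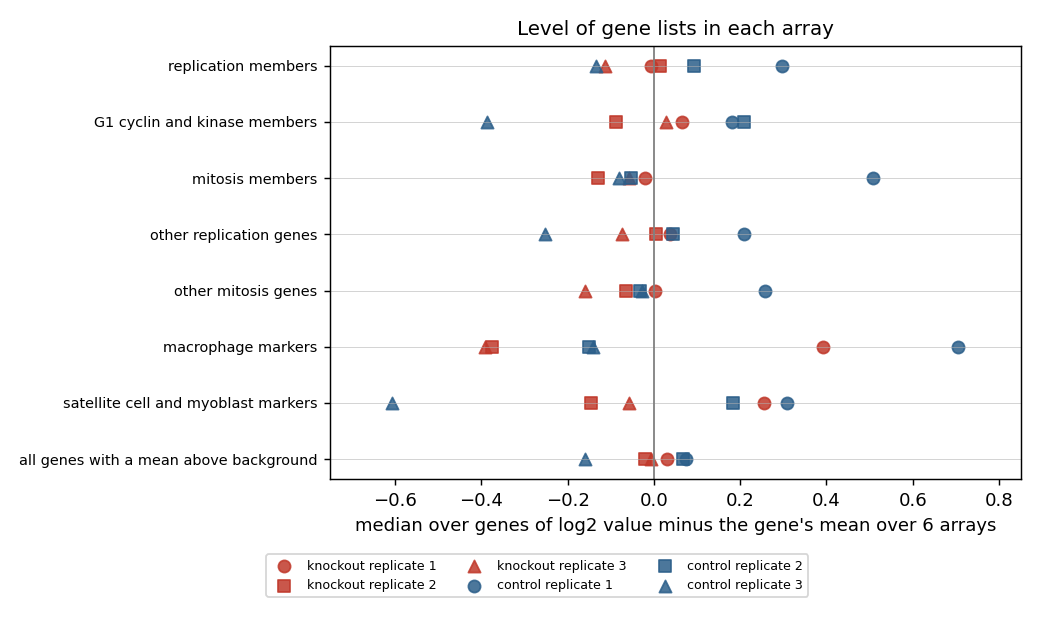
Median over the genes of a list of the log2 value minus the gene's mean over 6 arrays (horizontal axis), 1 symbol per array, for the 3 member groups, other cell cycle genes and cell markers. Control replicate 1 is highest for mitosis genes (0.51) and macrophage markers (0.71), and control replicate 3 is lowest for G1 genes (-0.39).

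Other genes of the same processes, listed by function, are given for comparison. Of 42 further mitosis genes 32 were lower (median log2 fold change -0.14) and 0 passed limma's adjusted threshold, and 23 had their highest value in control replicate 1. Their 2 smallest unadjusted p belonged to Ccnf, a cyclin of a ubiquitin ligase, at -0.26 ± 0.08, and Ect2, a regulator of cytokinesis, at -0.31 ± 0.13, both at or below background in all arrays. Of 36 further replication genes 17 were lower and 19 higher (median 0.00), with 0 past adjustment. Without control replicate 3, 26 of the 36 were lower with a median of -0.12, and without control replicate 1, 12 were lower with a median of 0.13. Pola1, the catalytic subunit of polymerase alpha, had -0.36 ± 0.15, with overlapping groups and a knockout mean below background. Pold1, that of polymerase delta, had -0.63 ± 0.28. It read 293, 352 and 318 in the knockout and 456, 361 and 732 in the controls, so control replicate 3 was highest. Without that array the log2 fold changes were -0.31 for Pola1 and -0.34 for Pold1.

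Brakes of the cycle were higher in the knockout in 9 of 10 cases, with a median of 0.18 and 0 past adjustment. Of all 18194 genes 8418 were higher, and of the 11047 above background 5831. Cdkn1b, the Cdk inhibitor p27, read 1459, 1752 and 1607 in the knockout and 1148, 1329 and 1488 in the controls, with a log2 fold change of 0.29 ± 0.15. Rbl1, the pocket protein p107, read 124, 131 and 103 in the knockout and 112, 92.0 and 40.8 in the controls, at 0.67 ± 0.38. Control replicate 3 was lowest for Rbl1 and highest among the controls for Cdkn1b. For Rbl1, control replicate 1 lay within the knockout range. Without control replicate 3, 7 of the 10 were higher, with a median of 0.05. Of 8 E2f factors 5 were lower (median -0.06), with E2f7 at -0.27 ± 0.12 and E2f8 at -0.34 ± 0.19, both repressors whose mean in the knockout was near background.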

How the data were processed

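Quadriceps RNA of 6 samples was hybridised to 1 Affymetrix mouse array each. GCOS and RMA were used by the authors, per the submitters' processing notes, without versions. Each deposited intensity is that of a probe set and linear in scale (37.2 to 16069), judged by its values; whether they were converted back from log2 is unknown. RMA compresses differences of dim genes.

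Of 45101 probe sets, 34958 had 1 gene symbol, 932 several, and 9211 were not listed. Entrez identifiers of 34754 were found in the RefSeq table of GRCm38.p6. The probe set brightest by mean over 6 arrays stood for each of 18194 genes. The log2 of these values, without a pseudocount, went into limma 3.58.1 (R 4.3.3), with group alone in the design and a trended eBayes step, two-sided, Benjamini-Hochberg over all genes, threshold 0.05. The number of arrays limits precision, and 3 against 3 cannot give an exact permutation p under 0.1. The fit was tested on simulated data. Motifs were searched in RefSeq promoters. Named genes were all members, Pofut1, and 2 genes of smallest p per pathway list. Members and lists were chosen with earlier results of these data known.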

Additional observations from a re-analysis of the deposited data

How the results depend on the processing

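Limma called 0 of 18194 genes and 0 members in each of the 19 other settings, and ordinary t statistics also called 0; at an unadjusted p under 0.05 the count of lower genes ran from 121 to 1226. The lowest adjusted p of any member was 0.326. Of 35 members 17 kept their sign wherever they were measured, 16 of them lower and Pttg1 higher. Members at an unadjusted p under 0.05 and lower were 3 over all arrays, 7 with array weights, 1 with the probe set of highest lowest value, 1 over genes above the median gene and 1 to 5 leaving out 1 array each. Over genes above the median gene 8 members were lower, since fewer were tested. Median log2 fold changes over single left-out arrays were -0.12 to -0.022 for replication, -0.32 to -0.058 for mitosis and -0.11 to 0.22 for G1 genes. The replicate block, where same-numbered arrays correlated at 0.19, -0.15 and -0.11 and so share only a number, left 3 members lower at an unadjusted p under 0.05 and 203 genes; in this balanced design it cannot move a fold change. Within the 100-base window 9.09% of replication promoters held E2F and 35.7% of mitosis promoters CHR. With TTTAAA added, CHR was in 85.7% of mitosis promoters over 300 bases (30.6% of all genes) and in 50% over 100 bases (11.3%).

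Signs turned as follows, and the cause was not tested. With quantile normalization: Bub1b 0.017. With array weights: Mcm2 -0.14, Mcm7 -0.23, Tyms 0.0010, Ccne1 -0.016, Cdk2 -0.087, Aurka -0.27, Plk1 -0.090, Tpx2 -0.091, Kif11 0.0049. With mean of probe sets: Ccne1 -0.15, Bub1b 0.0068, Kif11 0.0050. With probe set with the highest lowest value: Mcm7 -0.070. With values raised to the background: Plk1 -0.016. Without both arrays of high 3' over 5' ratio: Mcm2 -0.21, Mcm4 -0.23, Mcm7 -0.20, Ccnd3 -0.034, Ccne1 -0.030, Cdk2 -0.13, Aurka -0.16, Plk1 -0.050, Bub1b 0.00035, Tpx2 -0.083, Kif11 0.011. Leaving out 1 array each gave ranges across 0 for Rrm1 -0.083 to 0.093, Bub1b -0.095 to 0.093, Ccne1 -0.012 to 0.067, Plk1 -0.057 to 0.12, Aurka -0.34 to 0.50, Cdc6 -0.12 to 0.12, Cdt1 -0.50 to 0.013, Ccnb2 -0.51 to 0.0041, Mcm2 -0.098 to 0.60, Mcm7 -0.19 to 0.56, Tyms -0.22 to 0.031, Ccnd2 -0.12 to 0.56, Ccnd3 -0.015 to 0.44, Cdk2 -0.097 to 0.41, Aurkb -0.31 to 0.022, Tpx2 -0.19 to 0.45 and Kif11 -0.15 to 0.050. Depth on arrays is signal over background: 9 of 35 members had a mean at or below it.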
